A study of Homo sapiens with 48 samples.

Results

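The INTG siRNA is directed at an intergenic transcript of the C5 and TRAF1 locus (chromosome 9). The response to it differed in part between liver-derived Huh7 cells and monocytic THP1 cells. Of 300 probes whose response differed, 278 had the larger change in Huh7. Over all tested probes the median absolute log2 change was 0.130 in Huh7 and 0.128 in THP1. The sprouty inhibitors SPRY4 and SPRY2, the prostaglandin receptor PTGER4 and the Notch-modifying enzyme LFNG rose in Huh7, and their THP1 estimates were below 0, that of SPRY2 by 0.33 and, without 2 dim arrays described below, by 0.05. None of these THP1 estimates passed after adjustment in THP1 alone, in a fit that kept the dim arrays. The signal sequence receptor SSR1, the zinc transporter SLC39A1 and the nucleoporin SEH1L fell in Huh7 and had lower responses there than in THP1. All 48 of the series' 48 arrays entered this comparison, which is the INTG response in Huh7 (INTG minus the mean of both negative controls) minus the same response in THP1. Of 48795 probes with values, 11542 (7952 genes) were read in both lines, that is with a detection p-value under 0.01 on at least 8 of a line's 24 arrays.

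The 6 groups are Huh7 and THP1 cells that received INTG, Silencer Select Negative Control 1 (NC1) or Negative Control 2 (NC2), with 8 arrays per group. All groups received 50 pmol of siRNA with Lipofectamine 2000 in wells of 300000 cells, and RNA was taken after 2 days, so every group carries the transfection itself. Each line had 4 experiments on separate culture passages with 2 wells per siRNA. The first pair of experiments (1 and 2) was named discovery and the second (3 and 4) validation. Every line had its own slide in every phase, so the slide cannot be told apart from the phase, nor the line from its slides.

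The siRNA is the one perturbation that both lines share, and its target is shown because every value below is a response to it. Capitals mark the 7 bases that would face the seed of a guide strand fully complementary to the target.
INTG target: aactacgtgaagaGGCCTCTg
The full target occurred in 0 of 35116 RefSeq promoter windows (GRCh38.p14), which says only that these letters are not in those windows. In the RefSeq gene order the neighbours run PHF19, TRAF1, the noncoding C5-OT1 and C5. The targeted transcript has no named probe on the array, so its own level in either line is not reported here.

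An siRNA loads 1 strand into an Argonaute protein, which cuts fully matched RNA and can also lower RNAs that match only the seed. Huh7 is a hepatocellular carcinoma line that secretes liver plasma proteins, and THP1 is a monocytic leukaemia line grown in suspension. Several genes below belong to the ERK pathway, in which growth factor receptors activate a kinase cascade and sprouty, SPRED and dual-specificity phosphatase proteins feed back to restrain it.

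Most of the cell line markers fitted the labels. All 11 hepatocyte markers on the array were read in Huh7 only. Their summed signal was 108501 to 151365 on the Huh7 arrays and 254.7 to 303.5 on the THP1 arrays. Of 11 monocytic markers 9 were read in THP1 only, and the other 2, CD14 and LYZ, in both lines. These 2 went against the labels, with log2 levels of 6.76 for CD14 and 10.26 for LYZ in Huh7 and 5.85 and 7.51 in THP1. Of 15 markers of other cell types 9 were read in neither line, 1 in both, and 5 in Huh7 only. Those 5 were EPCAM, KRT19, CD3D, COL1A2 and PDGFRB.

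Array brightness moved with the contrast in part of the experiments. Mean INTG signal over mean control signal was 1.02, 0.798, 0.738 and 0.819 in Huh7 experiments 1 to 4, and 0.983, 0.986, 1.06 and 0.462 in THP1. Both THP1 INTG arrays of experiment 4 were dim, with 8685.5 detected probes on average against 11507 on the control arrays of that experiment. The ratios of the lines overlapped (exact permutation test, two-sided p = 0.971). The median THP1 effect over all tested probes was -0.24 in experiment 4 and within 0.01 of 0 in experiments 1 to 3. The difference without these 2 arrays is given beside many of the results below.

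The responses differed at 300 of the 11542 probes, which is 2.60% (joint limma fit, Benjamini-Hochberg adjusted p under 0.05). The difference was higher in Huh7 at 121 probes (1.05%) and lower in Huh7 at 179 (1.55%). These are 112 and 143 genes, since 28 of the probes carry no gene symbol. At an unadjusted p under 0.05 there were 2093 probes. A difference is given with its SE from the joint fit, over 4 experiments per line. Of the calls 15 passed 1.00 on the log2 scale, 10 higher and 5 lower, and 193 passed 0.50. The median difference over all tested probes was 0.07 and its SD 0.28. The count rested on the experiment block, with 1 call without it, and fell to 23 when experiment 3 was left out of both lines.

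Most calls came from a change that passed in Huh7. Taken line by line, 283 of the 300 (94.3%) also passed in the Huh7 fit, against 21.4% of all tested probes, and 4 passed in the THP1 fit, against 0.0520%. In 17 neither line's own change passed. The THP1 pass counts here and below come from a fit that kept the dim experiment 4. The SD of the THP1 effects was 0.79 in that experiment and 0.14, 0.17 and 0.26 in experiments 1 to 3. A THP1 fit to experiments 1 and 2 alone called 96 rises and 171 falls. Passes in THP1 alone were not counted without the dim arrays, so a low count does not show that THP1 did not respond. The 4 experiments of one line did not overlap the 4 of the other at 288 of the 300 probes (96%), against 9.51% of all tested probes. The same arrays made the calls, so this count is no separate check of them. The sign of the 2 estimates was opposite at 148 probes (49.3%, against 40.6% of all tested probes), 94 of them up in Huh7 and 54 down. Only 36 of these had an unadjusted p under 0.05 in each line. Both estimates were down at 125 probes and up at 27.

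**Figure D1:**
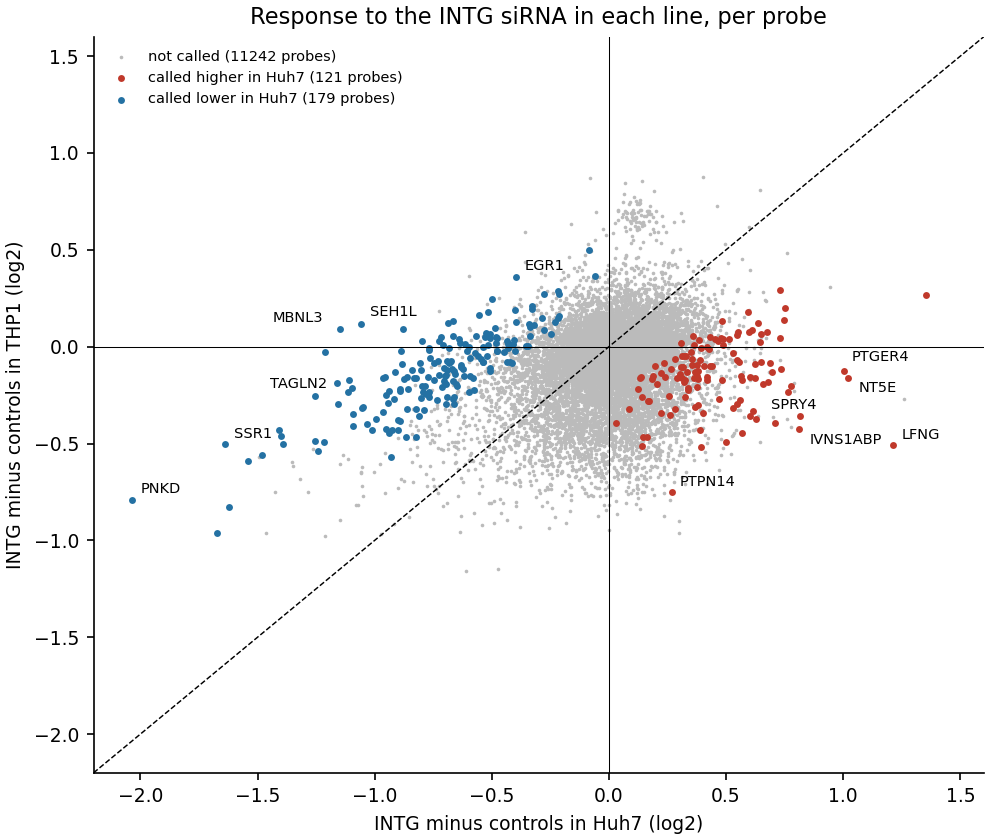
The INTG response of each of 11542 probes in Huh7 (horizontal axis, log2) and in THP1 (vertical axis, log2), as means over 4 experiments, with the 121 probes called higher in Huh7 in red and the 179 called lower in blue. The dashed line marks equal responses. Called probes spread along the Huh7 axis, from -2.04 at PNKD to 1.35 at VCAN, and stay closer to 0 on the THP1 axis.

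Among genes with a higher response in Huh7, PTGER4 and SPRY4 had the smallest p-values. PTGER4 encodes a receptor for prostaglandin E2. Its log2 change in experiments 1 to 4 was 0.71, 0.78, 1.13 and 1.39 in Huh7, and -0.06, -0.06, -0.18 and -0.21 in THP1. Every Huh7 experiment lay above every THP1 experiment. The difference was 1.13 (SE 0.127, 95% interval 0.86 to 1.40, adjusted p = 0.000825) and 1.10 without the dim arrays. The base levels were far apart for the same probe, at 5.63 on the log2 scale with either control in Huh7 and 9.54 and 9.35 in THP1.

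SPRY4, an inhibitor of receptor tyrosine kinase signalling, read 0.55, 0.74, 0.85 and 0.70 in Huh7. In THP1 it read -0.23, -0.30, -0.67 and -0.38. The groups did not overlap, and the difference was 1.11 (SE 0.123, adjusted p = 0.000825) with or without the dim arrays. In THP1 the SPRY4 probe sat close to background, detected on 3 NC1, 4 NC2 and 1 INTG array of 8, which is the fewest that the filter allows.

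LFNG, the fringe glycosyltransferase that extends sugars on Notch receptors, had the largest called difference at 1.72 (SE 0.267, interval 1.15 to 2.29, adjusted p = 0.00437). It changed by 1.02, 0.51, 1.76 and 1.56 in Huh7. The THP1 values were -0.31, -0.13, -0.28 and -1.31. The lowest of them belongs to the dim arrays, and without these the difference was 1.45.

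The matrix proteoglycan VCAN rose in Huh7 by 1.32, 1.43, 1.14 and 1.53. In THP1 it read 0.45, 0.65, -0.47 and 0.44, so that experiment 3 stood apart from the others. Its difference was 1.08 (SE 0.211, adjusted p = 0.0137) and 1.14 without the dim arrays. NUPR1, a stress-induced chromatin protein, read 0.55, 0.74, 0.65 and 1.16 in Huh7 and -0.46, -0.15, -0.10 and -0.11 in THP1, a difference of 0.98 (adjusted p = 0.01) and 1.01 without the dim arrays. Its other probe, with 0.97 (adjusted p = 0.156) and 0.60 without the dim arrays, did not pass either way.

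In several other genes the THP1 value of experiment 4 made up much of the distance. NT5E, the CD73 enzyme that makes adenosine from AMP, rose by 0.99, 0.73, 1.03 and 1.33 in Huh7. Its THP1 values were 0.11, 0.12, 0.05 and -0.92, and the difference of 1.18 became 0.93 without the dim arrays. IVNS1ABP, a kelch-domain protein that binds influenza NS1, read 0.57, 0.93, 0.67 and 1.08 in Huh7. The corresponding THP1 values were 0.17, -0.0087, -0.09 and -1.77, and the difference went from 1.24 to 0.79 without the dim arrays. CYP26B1, which inactivates retinoic acid, went from 1.00 to 0.79. The adenylate kinase AK4 went from 1.01 to 0.73, and its other 3 probes (0.17, 0.18 and 0.44) did not pass. The difference of the lipid phosphatase PIP4P2 went from 1.00 to 0.76, and that of the ubiquitin ligase component WSB1 from 0.99 to 0.67. PDE4D, a cAMP phosphodiesterase, went from 0.96 to 0.80. All of these passed in both fits. WSB1 was among the last inside the threshold (adjusted p = 0.0498), and the lysophosphatidic acid receptor LPAR1, with a difference of 1.53, lay just outside it (adjusted p = 0.0525). A second WSB1 probe did not pass either way (0.47, adjusted p = 0.212, and 0.29 without the dim arrays).

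Among genes with a lower response in Huh7, PNKD had the deepest fall in Huh7, at -1.62, -2.23, -2.54 and -1.75, against -0.70, -0.92, -0.74 and -0.80 in THP1. It fell in both lines, and the difference was -1.25 (SE 0.168, interval -1.61 to -0.89, adjusted p = 0.0016) and -1.25 without the dim arrays. A second PNKD probe gave 0.30 (adjusted p = 0.503), so the 2 probes disagree.

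SLC39A1, which carries zinc into the cell, read -1.31, -1.62, -1.65 and -1.58 in Huh7, and its THP1 values were -0.60, -0.59, -0.39 and -0.80. The difference was -0.95 (SE 0.0988, adjusted p = 0.000825) and -1.02 without the dim arrays. SSR1, the alpha subunit of the translocon-associated protein complex of the endoplasmic reticulum (ER), read -1.12, -1.43, -2.05 and -1.95 in Huh7. Its THP1 values were -0.52, -0.78, -0.51 and -0.19, so its THP1 estimate was also below 0, and the difference was -1.14 (SE 0.171, adjusted p = 0.00342) and -1.03 without the dim arrays. NPTX2, a secreted pentraxin, fell in Huh7, with values of -1.50, -1.16, -1.40 and -1.50, and read -0.62, -0.38, -0.38 and -0.62 in THP1. That difference was -0.89 (adjusted p = 0.00126) and -0.93 without the dim arrays.

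A second set of lower calls had THP1 values around 0. SEH1L, which belongs to the nuclear pore and to the GATOR2 complex, read -0.92, -0.70, -1.45 and -1.15 in Huh7. In THP1 it read 0.03, -0.16, -0.09 and 0.68, and the difference was -1.17 (adjusted p = 0.00477) and -0.98 without the dim arrays. A second SEH1L probe passed as well (-0.88, adjusted p = 0.00515) and a further one did not (-0.17). MBNL3, a muscleblind splicing regulator, gave -1.24 (-1.04 without the dim arrays) and its other probe -0.38 (adjusted p = 0.25). AMMECR1 read -0.79, -0.80, -1.56 and -1.69 in Huh7 and 0.22, -0.18, -0.25 and 0.11 in THP1. TAGLN2, an actin-binding protein, was the same with both of its probes (-0.94 and -0.80), with Huh7 values of -0.89, -0.98, -0.95 and -1.61 against -0.15, -0.32, -0.11 and -0.11. TSHZ1, a zinc-finger protein, gave -0.83 (adjusted p = 0.0302).

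SLC35A4 (-0.98), CCDC32 (-0.98), PRICKLE4 (-0.94), NDRG3 (-0.92) and AP3B1 (-0.86), a subunit of the AP-3 coat that sorts cargo to lysosomes, complete the lower genes by size. In these 5 the THP1 estimate was below 0 too, from -0.56 at NDRG3 to -0.19 at SLC35A4. C1QTNF6 was detected on 0 of the 8 Huh7 INTG arrays, so its Huh7 fall is known only as at least 1.36-fold.

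**Figure D2:**
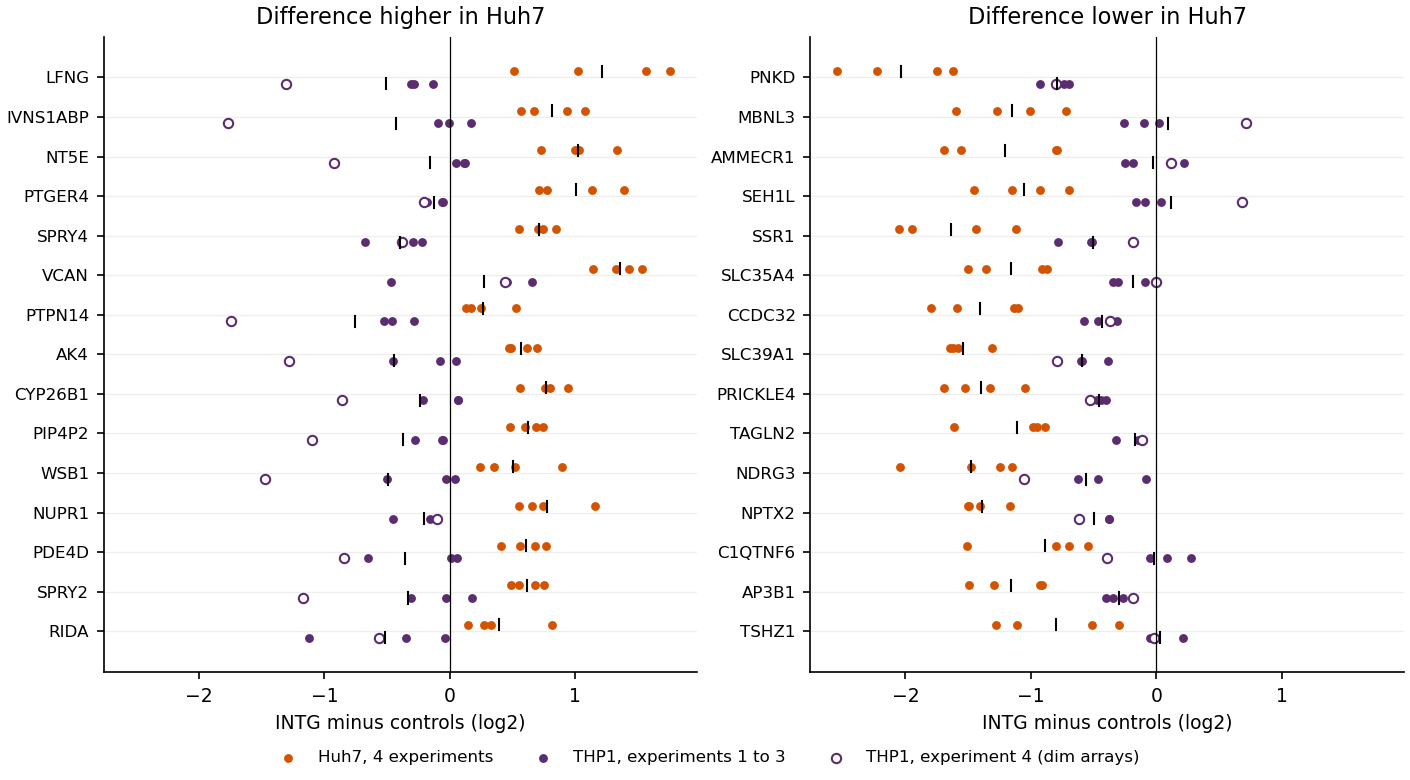
INTG minus controls (log2) in each experiment for the 15 genes with the highest and the 15 with the lowest called difference, Huh7 in orange above and THP1 in purple below each line, with the means as vertical bars and the dim THP1 experiment 4 as open circles. The genes were chosen among calls whose 4 Huh7 values do not overlap the 4 THP1 values, so that separation follows from the choice. The open circle is the lowest THP1 value of, among others, LFNG, IVNS1ABP, NT5E, PTPN14, AK4 and WSB1.

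Gene lists were read with 1 probe per gene, over which 238 of 7952 genes were called (2.99%) and the median difference was 0.07. The ERK feedback and target list stood at 4 higher and 1 lower of 11 genes measured, with a median of 0.61. SPRY4 (1.11), SPRY2 (0.95), SPRED1 (0.61) and DUSP6 (0.63) were higher. All of them restrain the ERK cascade, SPRED1 at the level of Ras and DUSP6 by dephosphorylating ERK. In Huh7 7 of the 11 rose and 1 fell, where 21.4% of all tested probes passed. In THP1 0 of 11 passed, where 0.0520% of all did, and 4 had an unadjusted p under 0.05.

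DUSP6 rose in Huh7 by 0.43, 0.67, 0.51 and 0.62 and stayed between -0.14 and 0.01 in THP1. A second DUSP6 probe gave 0.66 without passing (adjusted p = 0.113), and 0.46 without the dim arrays (adjusted p = 0.157). SPRY2 read 0.55, 0.75, 0.49 and 0.68 in Huh7 and -0.03, 0.18, -0.31 and -1.17 in THP1. The SPRY2 difference went from 0.95 to 0.67 without the dim arrays, and that of SPRED1 from 0.61 to 0.47. Another 2 members with large estimates missed the threshold, the phosphatase DUSP5 (1.02, adjusted p = 0.0863) and the transcription factor ETV4 (0.73, adjusted p = 0.0676). Without the dim arrays both passed, which made 6 higher and 1 lower, and the list median was 0.47.

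EGR1 went the other way in the same list. This immediate early transcription factor fell in Huh7, by 0.23, 0.38, 0.52 and 0.46, and read 0.18, 0.44, 0.65 and 0.18 in THP1. The difference was -0.76 (SE 0.105, adjusted p = 0.00166) and -0.82 without the dim arrays. With NC1 as the only control it was -1.04 (adjusted p = 0.00159) and with NC2 alone -0.48 (adjusted p = 0.0807). In THP1 the probe stood at 7.79 with NC1 and 8.29 with NC2, so the controls themselves were apart. FOSB, another AP-1 gene, was lower as well (-0.79, adjusted p = 0.0218), but it was detected on 0 of the 8 Huh7 INTG arrays, where its fall was at least 1.58-fold. Of 8 AP-1 and immediate early genes 2 were lower and 0 higher, with a median of -0.13. MAPKAPK3, a kinase downstream of p38, was the 1 called gene of 10 in the MAP kinase cascade (-0.76, adjusted p = 0.0198).

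Of 6 measured genes of prostanoid, purine and lysophospholipid signalling, PTGER4 and NT5E were higher and 0 were lower, with a median of 0.70. LPAR1 rose in Huh7 by 0.99, 1.07, 1.25 and 1.73 and read 0.33, 0.30, 0.27 and -1.98 in THP1. Its difference passed without the dim arrays, at 0.96 (adjusted p = 0.00203).

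ER chaperones and unfolded protein response genes lay on the lower side, with 4 lower and 0 higher of 18 and a median of -0.17. EDEM1 (-0.78), which directs misfolded glycoproteins to degradation, the lectin chaperone CANX (-0.72), SDF2L1 (-0.58) and CRELD2 (-0.39) were called. CANX read -0.61, -0.55, -0.82 and -0.85 in Huh7 and 0.17, -0.26, 0.05 and 0.08 in THP1, and its second probe also passed (-0.59, adjusted p = 0.0147). The first gave -0.70 without the dim arrays. The abundant chaperone HSPA5 (-0.18, adjusted p = 0.353) and the transcription factor XBP1 (-0.03) did not pass. HYOU1 passed with one probe (-0.47) and not with the other (-0.17). Among 22 translocon genes SSR1 was the 1 call, and the list median was -0.0058.

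In the list of metallothioneins, which bind zinc and copper, and zinc transporters, 3 of 19 genes were lower, 0 were higher, and 16 of the estimates were below 0. The median was -0.26. Beside SLC39A1 these were MT2A (-0.63, adjusted p = 0.0447) and MT1X (-0.54, adjusted p = 0.0133). MT2A fell in Huh7 by 0.47, 1.13, 0.33 and 0.53 and read 0.10, -0.20, 0.04 and 0.11 in THP1. Metallothionein genes are near-identical copies, so a probe for one may read others. Against the controls singly, MT1X gave -0.71 with NC1 (adjusted p = 0.00979) and -0.37 with NC2 (adjusted p = 0.19).

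G1 cyclins and kinases had 3 lower and 0 higher of 13, with a median of -0.20. These were the kinase CDK6 (-0.51), the cyclin CCND3 (-0.43) and the transcription factor E2F2 (-0.54). The E2F2 experiments of the lines overlapped, and its difference was -0.77 against NC2 but -0.31 against NC1 (adjusted p = 0.348). CCND1 did not differ beyond the error (0.08, adjusted p = 0.762).

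Among 10 myeloid identity genes LYZ was higher (0.85) and the transcription factors CEBPA (-0.51) and MYB (-0.37) were lower. CEBPA read -0.54, -0.46, -0.82 and -0.67 in Huh7 and between -0.15 and -0.06 in THP1. MYB passed although its Huh7 level (6.28 with NC1) was far under that in THP1 (12.7). LYZ read -1.15 in THP1 experiment 4, and its difference was 0.56 without the dim arrays.

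Adhesion and matrix genes went both ways. The integrin chain ITGAV (0.85) and thymosin TMSB4X (0.62), which holds actin monomers, were higher, and ITGA5 (-0.43) was lower, of 21. ITGA5 did not pass without the dim arrays (adjusted p = 0.0628). Of 8 matrix and secreted glycoproteins VCAN and the protease inhibitor SERPINE2 (0.42) were higher and NPTX2 was lower. In SERPINE2 the Huh7 estimate was 0.03 and the THP1 values were -0.40, -0.39, -0.26 and -0.51.

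Single calls were found in other lists. They were LFNG among 10 Notch pathway genes, PHF19 (-0.72) among 10 Polycomb genes, SLC7A5 (-0.64), an amino acid transporter, among 16 of the ATF4 response, PKM (-0.59) among 18 of glycolysis and hypoxia, SEH1L among 27 nuclear transport genes, and PRKRA (0.40), a partner of Dicer, among 15 genes of RNA interference. None were called among 12 interferon-stimulated, 16 NF-kappaB, 8 cytokine, 4 HLA, 13 p53, 23 DNA replication, 25 mitotic, 21 cholesterol and fatty acid, 20 NRF2, 24 lysosomal, 25 ribosomal, 23 respiratory chain, 27 proteasome, 14 histone, 22 splicing regulator, 2 acute phase, 2 growth factor receptor and 10 housekeeping genes by limma with 1 probe per gene. Another probe of 1 splicing regulator gene was called. Of the 288 genes in these 18 lists, 36 had an unadjusted p under 0.05, against 18.1% of all probes tested. TNFAIP3, a brake on NF-kappaB, read 0.56 (adjusted p = 0.311), with -1.96 in the dim THP1 experiment. The IFIT1 difference was 0.34 (adjusted p = 0.124).

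**Figure D3:**
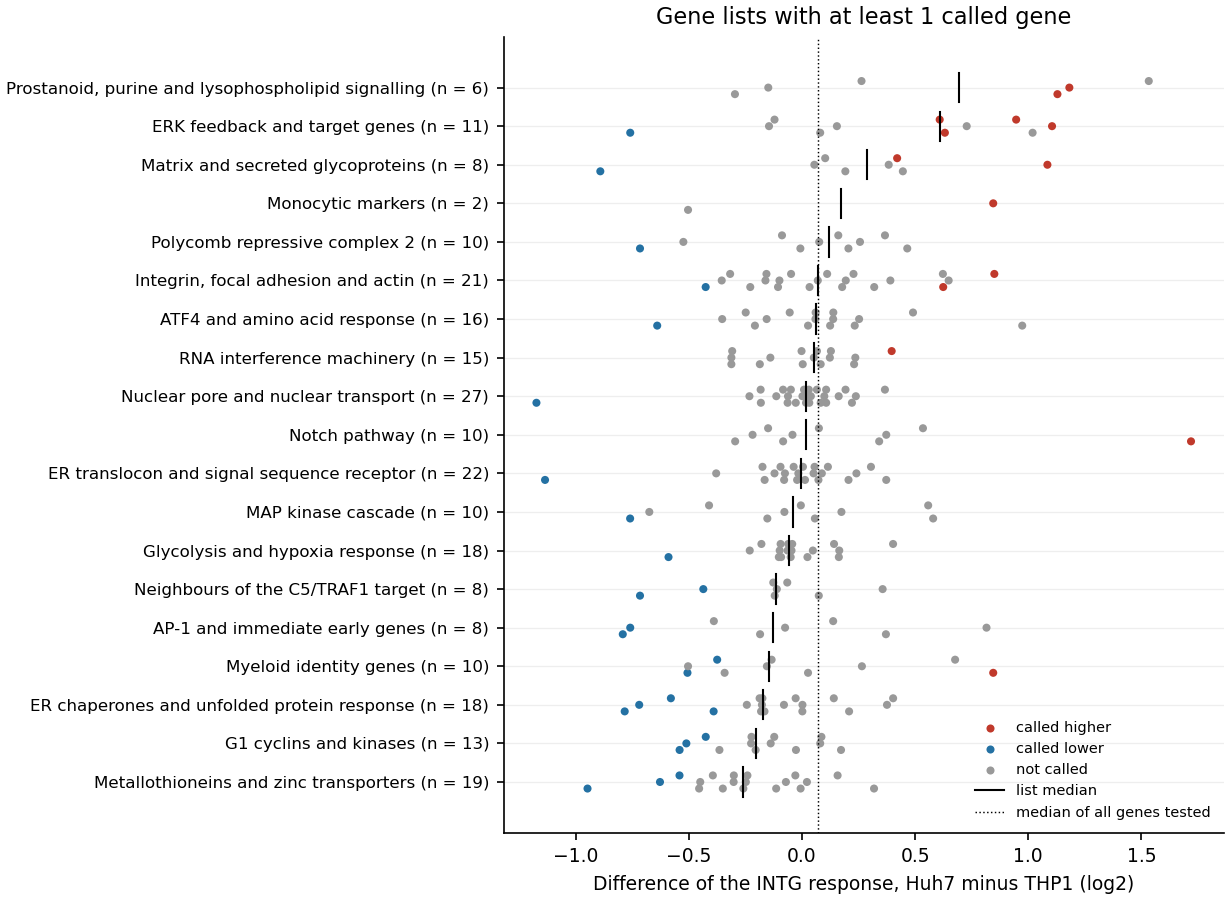
The difference of the INTG response (Huh7 minus THP1, log2) for each gene of the 18 lists, and of the monocytic markers, that hold at least 1 called gene, with 1 probe per gene, called genes in red (higher) or blue (lower), the list median as a bar and the median of all genes (0.07) as a dotted line. ERK feedback genes lie to the right with a median of 0.61, and metallothionein and zinc genes to the left with -0.26.

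Opposite responses were read in genes whose estimates passed an unadjusted p under 0.05 in each line. ANTXR2, a receptor that binds matrix proteins and anthrax toxin, fell in Huh7 by 0.35, 0.53, 0.63 and 0.48 and read 0.17, 0.31, 0.45 and 0.06 in THP1. The difference was -0.74 (SE 0.0953, adjusted p = 0.00127). PKM, the pyruvate kinase of glycolysis, read -0.42, -0.42, -0.18 and -0.59 in Huh7 against 0.14, 0.15, 0.25 and 0.22 in THP1 (adjusted p = 0.00196). Its other 2 probes did not pass (adjusted p = 0.06 and 0.293) and read 0.03 and -0.09 in THP1, so the rise there rests on 1 probe. The ornithine aminotransferase OAT (-0.52), MID1IP1 (-0.55) and the mitochondrial cyclophilin PPIF (-0.50) followed the same pattern, and the PPIF change in Huh7 did not pass (adjusted p = 0.0992). A second OAT probe passed (-0.43, adjusted p = 0.0339), and a second MID1IP1 probe did not (-0.32, adjusted p = 0.241). None of the THP1 changes of these genes passed after adjustment over all THP1 probes.

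In 22 of the 300 probes the larger change was in THP1, 18 of them higher and 4 lower in Huh7. All 22 had an unadjusted p under 0.05 in THP1, which this choice of probes makes likely, and 0 passed after adjustment. The share with a larger THP1 change was not counted over all tested probes. The median absolute change over all tested probes, not over these 22, was 0.130 in Huh7 and 0.128 in THP1. CA2, a carbonic anhydrase, read 0.41, 0.44, 0.22 and 0.92 in THP1 and between -0.20 and 0.02 in Huh7. Its difference was -0.59 (adjusted p = 0.0153) and -0.44 without the dim arrays. A second CA2 probe did not pass either way (-0.47, adjusted p = 0.173, and -0.27 without the dim arrays). IQGAP2, a scaffold protein, read -0.31, -0.62, -0.80 and -0.33 in THP1 and at most 0.23 in Huh7, a difference of 0.66 (adjusted p = 0.025). In THP1 the IQGAP2 probe sat close to background, detected on 4 NC1, 4 NC2 and 3 INTG arrays of 8. IGF2BP2, an mRNA-binding protein, read -0.18, -0.06, -0.50 and -0.28 in THP1 and 0.24, 0.14, 0.37 and 0.27 in Huh7. Its difference was 0.51 (adjusted p = 0.01), and it passed against both controls singly.

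Some of the other differences moved with the dim arrays and some did not. PTPN14, a phosphatase that restrains YAP, read -1.75 in THP1 experiment 4 and between -0.52 and -0.28 before it, and the difference went from 1.02 to 0.69. SCRN1 went from 0.82 to 0.60, GOLM1 from 0.61 to 0.44 and MARCKSL1 from 0.57 to 0.42. The SCRN1 probe was also close to background in THP1, detected on 4 of 8 arrays with each siRNA. ERGIC2 went from 0.61 to 0.62. RIDA, which clears reactive imines, was detected on 0 of 8 NC2 arrays in Huh7, so its rise over that control is known only as at least 1.12-fold. A second RIDA probe gave a difference of 0.28 and did not pass (adjusted p = 0.0578).

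Some genes that passed in Huh7 had similar estimates in both lines. HADHB, a subunit of the mitochondrial trifunctional protein, read -0.61 in Huh7 and -0.60 in THP1, a difference of -0.0090 (SE 0.146). LCLAT1, an acyltransferase of cardiolipin remodelling, read -0.56 and -0.49. The adhesion protein vinculin (VCL) read -0.69 and -0.53, with a difference of -0.16 (adjusted p = 0.396). KIF20A, a kinesin of cytokinesis, read -0.51 and -0.38, and the clock gene PER2 -0.61 and -0.41. TOB1, an antiproliferative protein, was at -0.66 and -0.51, and AKR1C4, a steroid reductase, at 0.51 and 0.43. Missing the threshold does not show that the responses are equal, since the median SE of a difference was 0.14.

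The size of the Huh7 response was also read in THP1 with probes chosen elsewhere, from Huh7 experiments 1 and 2 alone. The 391 probes that rose there had a median of 0.30 in the 2 later Huh7 experiments. In THP1 their median was 0.14 over experiments 1 and 2, -0.0014 in experiment 3 and -0.21 in the dim experiment 4. All tested probes were within 0.01 of 0 in experiments 1 to 3 and at -0.24 in experiment 4. The 557 probes that fell had a median of -0.59 in the later Huh7 experiments. In THP1 it was -0.19 over experiments 1 and 2, -0.12 in experiment 3, where 69.8% were below 0 against 48.8% of all probes, and -0.51 in experiment 4. In THP1 the falls lay below the median of all probes in both phases, and the rises lay above it in discovery and near it in experiments 3 and 4. Chosen the other way, 171 probes that fell in THP1 experiments 1 and 2 had a median of -0.76 in the later Huh7 experiments and -0.51 in the later THP1 experiments, with -0.26 in experiment 3 and -0.71 in the dim experiment 4. The 96 that rose in THP1 had 0.22 in the later Huh7 experiments and -0.10 in the later THP1 experiments, with 0.10 in experiment 3 and -0.32 in experiment 4.

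**Figure D4:**
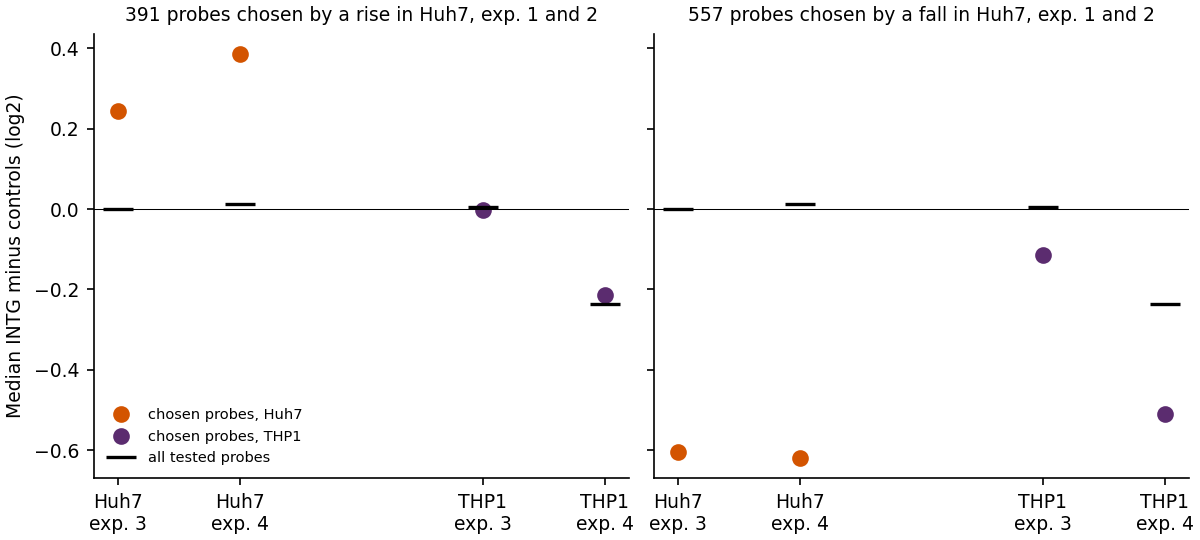
Median INTG response (log2) in experiments 3 and 4 of each line for the 391 probes that rose and the 557 that fell in Huh7 experiments 1 and 2 (points), beside the median of all 11542 tested probes (black bars). In these 2 THP1 experiments the points for rises sit at the bars and the points for falls below them. Experiments 1 and 2 are not drawn, and there the rises had a THP1 median of 0.14.

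The phases were compared as the design intends. The discovery slides alone gave 46 calls (0.399%), 15 higher and 31 lower. In validation 43 of the 46 had the same sign, against 57.7% of all tested probes, and 35 also had an unadjusted p under 0.05. Among these LFNG read 0.98 in discovery and 2.45 in validation, PTGER4 0.80 and 1.46, SPRY4 0.91 and 1.30, and NUPR1 0.95 and 1.01. PNKD read -1.11 and -1.38, SLC39A1 -0.87 and -1.02, AMMECR1 -0.81 and -1.56, and NPTX2 -0.83 and -0.96. On the validation slides alone limma called 0 probes, also without the dim arrays, and 1405 had an unadjusted p under 0.05. For the difference between the phases the count was 0 as well, and 946 probes had an unadjusted p under 0.05.

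Without the 2 dim THP1 arrays 523 probes were called (4.53%), 189 higher and 334 lower. Of the 300 calls 277 were among them, which is 92.3% of the 300 and 53% of the 523. All 300 kept their sign. The 246 added calls were 80 higher and 166 lower. Among the higher were LPAR1, the cell cycle inhibitor CDKN2B (from 1.13 to 0.70) and BBX (from 1.01 to 0.70). CDKN2B read -1.67 in the dim experiment and between -0.02 and 0.17 in the other THP1 experiments. Among the lower were TTPAL (from -0.73 to -1.19), the deubiquitinase YOD1 (from -0.76 to -1.01), the kinase MAP2K3 (from -0.67 to -0.93) and the histone gene H2BC12 (from -0.63 to -1.07). H2BC12 read -2.0 in the dim experiment and between -0.31 and -0.17 otherwise. Its Huh7 values were -0.78, -1.55, -1.61 and -1.33, below the other THP1 values and above that of the dim experiment. Opposite signs were found at 237 of the 523 (45.3%), against 37.8% of all tested probes.

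**Figure D5:**
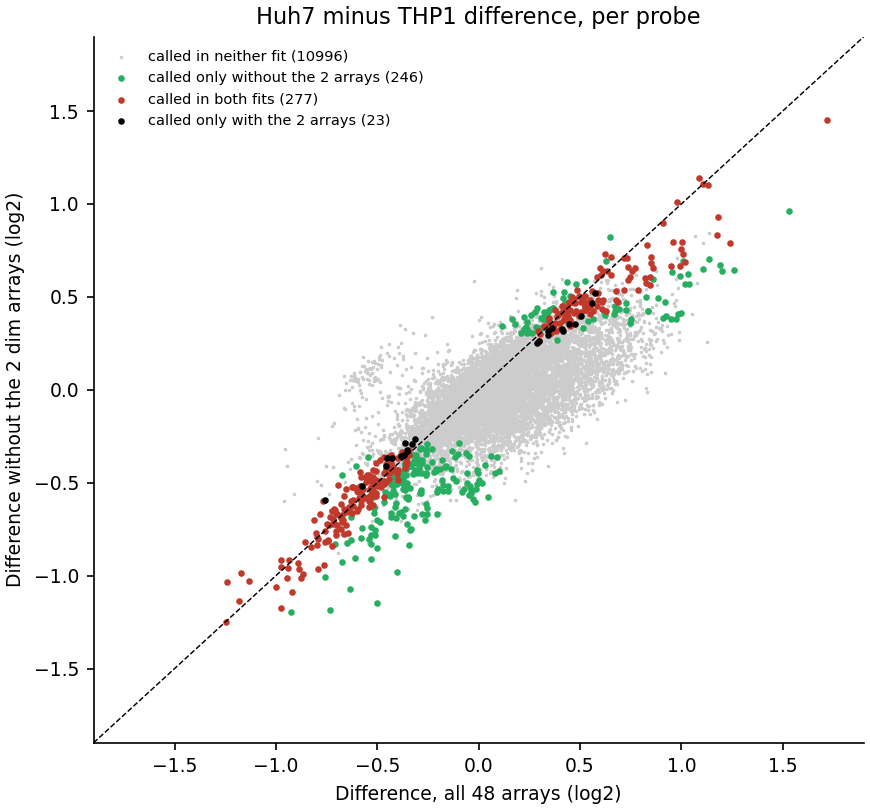
The difference between lines (log2) per probe with all 48 arrays (horizontal) and without the 2 dim THP1 INTG arrays (vertical). Of the called probes 277 were called both ways, 246 only without the 2 arrays and 23 only with them, and all 300 calls keep their sign.

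The rule that a difference hold against each control alone was stricter. It left 65 probes (0.563%), 10 higher and 55 lower, and 169 without the dim arrays. LFNG, PTGER4, SPRY4, PIP4P2 and IGF2BP2 were among the higher. PNKD, SLC39A1, SSR1, SEH1L, CANX, PKM and ANTXR2 were among the lower. Between the controls themselves, NC2 minus NC1 in Huh7 minus the same in THP1, the joint fit gave 0 calls. An unadjusted p under 0.05 was found at 396 probes, where 577 would be expected with no difference. Without the dim arrays 2 were called.

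Beside the target, PHF19 and FBXW2 were lower in Huh7 among 8 measured neighbours and 0 were higher, where 2.99% of all genes were called. TRAF1 was not among the 8. PHF19, a Polycomb-associated protein, read -0.75, -0.68, -1.11 and -0.81 in Huh7 and -0.20, -0.31, -0.06 and 0.08 in THP1. The difference was -0.72 (SE 0.112, adjusted p = 0.00459), a second probe gave -0.50 (adjusted p = 0.0175) and the third probe -0.06 (adjusted p = 0.88). FBXW2, an F-box protein, read -0.12, -0.41, -0.35 and -0.27 in Huh7 and 0.16, 0.14, 0.18 and 0.13 in THP1, a difference of -0.44 (adjusted p = 0.019). STOM went the other way, with a rise of 0.45 in Huh7 (adjusted p = 0.00282) and 0.09 in THP1. Its difference of 0.36 did not pass (adjusted p = 0.105), and without the dim arrays it passed at 0.44 (adjusted p = 0.0262). The complement gene C5 did not pass (0.07, SE 0.0861, adjusted p = 0.648).

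The base level of called probes was not that of the array at large. Among the 179 lower calls 24.6% had a control level more than 1.00 (log2) lower in Huh7 than in THP1, against 13% of all tested probes. Of the 121 higher calls 25.6% had a level more than 1.00 higher in Huh7 and 21.5% more than 1.00 lower, against 13% of all either way. Of the lower calls 9.5% had a level more than 1.00 higher in Huh7. The part of the base level in the difference was not tested. Detection on all 16 THP1 control arrays was found for 96.6% of the lower calls, 78.5% of the higher and 75.4% of all probes.

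Probes that the detection filter kept in only 1 line lie outside this contrast. In Huh7 616 of 2336 probes not read in THP1 passed the test (26.4%, against 21.4% of the probes tested in both lines), 283 up and 333 down, and 449 of the 616 were detected on 0 THP1 arrays. The secreted phosphoprotein osteopontin (SPP1, 1.18), TSPAN12 (1.09), HLA-DMB (1.05) and osteoprotegerin (TNFRSF11B, 1.01) rose. PKIA, an inhibitor of protein kinase A (-1.28), the tryptophan dioxygenase TDO2 (-1.21) and the gap junction protein GJB1 (-1.19) fell. Other large changes were at probes detected on a few THP1 arrays. AKR1C3 (1.11 in Huh7, 7 THP1 arrays) read 0.79, 0.87, 0.73 and -0.57 in THP1. AGAP3 (-1.35 in Huh7, 5 THP1 arrays) read 0.06, -0.63, -0.68 and -1.04 there. In THP1 0 of 1982 probes not read in Huh7 passed by limma, with 273 at an unadjusted p under 0.05. For probes detected on 0 arrays of the other line, the answer there was not measured.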

How the data were processed

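Human Huh7 and THP1 cells were profiled on Illumina bead arrays, 48 in all. The deposited intensity values are bead signals with their detection p-values per the file headers, and a second deposited intensity table holds the authors' processed values, with its steps not given in the sources used here, beyond the tools limma and lumi in the submitters' processing notes. Signals were corrected with normexp by detection p-values (neqc, offset 16), made comparable by quantiles across all arrays and logged (log2) in limma 3.58.1 under R 4.3.3. Both wells of an experiment were averaged, which leaves n = 4 per group. The joint limma fit had line by siRNA terms, line by experiment as block and 12 residual degrees of freedom. Effects within a line came from separate fits with 6. All p-values were adjusted over all tested probes by Benjamini-Hochberg (threshold 0.05). Tested on simulated data with each line's own spread, the fit returned the changes put in and made somewhat more false calls than its threshold allows; it assumes 1 spread for both lines.

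Per the series' design text an experiment used its own passage, so the experiment was kept as a block. Deviations from group means correlated at 0.484 to 0.923 within experiments and at 0.476 to 0.748 across the lines. These ranges overlap, so the correlation within experiments does not by itself show an effect of passage. Array positions were tied to the siRNA, and an effect of position was not tested. The number of arrays limits the precision.

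Probes were named through the platform annotation, with 28098 probes of 1 symbol, 13 of several and 20692 of none, and 8 probes with blank values were left out. Genes named are the 15 highest and 15 lowest called differences, taken only where the experiments of the lines did not overlap. Others are those with the larger change in THP1, with opposite or alike changes, repeated in both phases, gained without the dim arrays, beside the target, and up to 4 called members of each of 36 lists, or otherwise 2 leading members. SPRED1, CRELD2, DUSP5, ETV4, HSPA5, XBP1 and CCND1 were added from those lists after their values were seen, and 3 lists of cell markers checked the lines. Members, lists and rules were chosen with earlier results of these data known. For lists, 1 probe stood for a gene. Alternatives covered the block, wells, controls, background, normalization, the authors' values, detection, weights, brightness, phases and leaving out experiments.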

Additional observations from a re-analysis of the deposited data

Results flagged for a closer look

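Within a line, 64 sets of 4 experiments were searched for a value far from the other 3, and 8 were found. For independent sets not chosen by their values, chance gives about 1 in 20. Most of the sets came from the genes named by size, which were chosen from these values and share the same experiments. That rate therefore does not apply to them. In THP1 experiment 4 the ratio of INTG to control brightness was 0.462. In the same experiment LFNG (-1.31), IVNS1ABP (-1.77), NT5E (-0.92) and PTPN14 (-1.75) stood below their other THP1 values. NUPR1 in THP1 experiment 1 (-0.46), TAGLN2 in Huh7 experiment 4 (-1.61) and TSHZ1 in THP1 experiment 3 (0.21) stood apart as well.

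The response differed between the lines, by the test of the difference itself, in the 30 genes named by size. Higher in Huh7 were LFNG (1.72), IVNS1ABP (1.24), NT5E (1.18), PTGER4 (1.13), SPRY4 (1.11), VCAN (1.08), PTPN14 (1.02), AK4 (1.01), CYP26B1 (1.00), PIP4P2 (1.00), WSB1 (0.99), NUPR1 (0.98), PDE4D (0.96), SPRY2 (0.95) and RIDA (0.91). Lower were PNKD (-1.25), MBNL3 (-1.24), AMMECR1 (-1.18), SEH1L (-1.17), SSR1 (-1.14), SLC35A4 (-0.98), CCDC32 (-0.98), SLC39A1 (-0.95), PRICKLE4 (-0.94), TAGLN2 (-0.94), NDRG3 (-0.92), NPTX2 (-0.89), C1QTNF6 (-0.87), AP3B1 (-0.86) and TSHZ1 (-0.83). The sizes for RIDA and C1QTNF6 are not settled, since RIDA was detected on 0 of 8 Huh7 NC2 arrays and C1QTNF6 on 0 of 8 Huh7 INTG arrays. The Huh7 rise of RIDA over NC2 is at least 1.12-fold and the Huh7 fall of C1QTNF6 at least 1.36-fold.

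Outside the named genes, 28 called differences lie at probes with no gene symbol, of 1508 such probes tested. Such probes are 9.33% of the calls and 13.1% of all tested probes, so they are not more frequent among the calls. The contrast of the controls gave 0 there, as it did over all tested probes. In Huh7 616 probes not read in THP1 passed the INTG test (26.4%, against 21.4% of the probes tested in both lines), and the contrast of the 2 controls gave 8 among the same 2336 probes.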

How the results depend on the processing

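The count of 300 calls fell furthest with changes of the block and with some experiments left out of both lines. Changes of the scaling moved some of the counts as well. The 300 calls became 1 with no replicate block, 20 with experiment numbers paired across the lines and 58 with slides as the block. They were 1347 with wells as separate arrays, 649 with array weights, 1121 with mean array signal as a covariate, 551 after cyclic loess, 508 with detection on all 24 arrays and 102 with NC2 as the only control. The discovery slides gave 46 and the validation slides 0, also without the 2 dim arrays, a setting added after the data were seen. Without those arrays all slides gave 523. Leaving out experiment 1, 2, 3 or 4 of both lines gave 44, 63, 23 and 277. Leaving out 1 experiment of Huh7 gave 87 (experiment 4) to 217 (experiment 1), and of THP1 134 (experiment 3) to 516 (experiment 4). Unnamed settings stayed within 1.5 times.

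The 65 probes called against both controls singly became 0, 2 and 3 under the 3 blocks above, 460 with separate wells, 258 with weights, 222 with the covariate, 159 after cyclic loess, 172 with detection on all arrays, 100 with no background correction and 169 without the dim arrays. Either phase alone gave 0, and leaving out experiments gave 0 to 126. The contrast of the controls, 0 in the fit reported, gave 16 with separate wells, 12 with weights, 5 with detection on all arrays, 2 without the dim arrays, and 1 each after cyclic loess and with no detection filter. The 35 repeated calls became 0 without the experiment block in the 3 forms above, with NC2 alone and with the authors' values on either scale. They were 18 with NC1 alone, 1 with the covariate, 58 with no background correction, 93 with no detection filter and 394 with separate wells. Phases were not refitted with array weights or with an experiment left out.

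Over 69 called probes of named genes and 32 alternatives, 1295 of 2176 values kept their call, 881 kept the sign without passing, and 0 reversed. Changing the block, separating the wells or weighting by line leaves the estimate as it is in this balanced design. The sign could not reverse in those settings, and the others share many of the same arrays. The absence of reversals is therefore no separate check of the calls. The causes were not tested.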
